A study of Danio rerio with 8 samples.

Results

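Kinesins are motor proteins that walk along microtubules, and 41 genes for kinesins and the light chains of kinesin-1 were followed here in whole 2-day-old zebrafish larvae. The genes were chosen by symbol, as every row named kif or klc followed by a digit, ignoring case, with a mean of at least 0.5 TPM over the 8 libraries. TPM is the abundance of a gene's transcripts per length, as a share of the library. Such a symbol was carried by 48 of 32520 genes, and 7 of them lay below that level. The 4 mutant libraries came from larvae homozygous for the sa24730 allele of nphp8 and described as maternal zygotic mutants, born to mutant mothers, and the 4 control libraries from larvae labelled wild type, which the series design calls siblings. None was treated. If the mutant mothers were homozygous, none of their offspring could be wild type, so the labels of the controls conflict. If the controls are wild type, they had other mothers, and genotype coincides with mother and clutch in every comparison below. The part of mother or clutch was not tested. Nothing in the labels says how many larvae or clutches went into a library. The p-values therefore measure the spread between these libraries, which may be technical.

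Kinesins share a motor domain that turns ATP hydrolysis into movement or into the shortening of microtubules, and the rest of each protein selects its cargo. Kinesin-2 motors carry intraflagellar transport trains out along the cilium, several other families build the mitotic spindle and divide the cell, and kinesin-1 and kinesin-3 motors carry vesicles and organelles along axons. The nphp8 protein, listed here under the name rpgrip1l, sits at the base of the cilium in the transition zone, the gate that these trains pass. Members were sorted by such known roles into 5 ciliary, 11 mitotic and 21 transport genes and 4 others. Several symbols are shared by duplicated zebrafish genes, which are told apart below by their Ensembl identifiers.

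The mutated gene, RPGRIP1L (ENSDARG00000051754), was lower in all 4 mutant libraries than in any control, with means of 0.755 ± 0.0265 TPM in mutants and 2.44 ± 0.275 TPM in controls (SD, n = 4 each; exact permutation test, two-sided, p = 0.0286, the smallest that 70 assignments allow). The depth of the libraries is unknown, because TPM keeps no read number. Mutant replicate 2 was the highest of the 8 libraries for 16 of 41 kinesin genes and the lowest for 0. The summed kinesin level was 534.4 TPM in it, 499.9 to 518.0 TPM in the other mutants and 507.7 to 514.2 TPM in controls. Its scaling factor by the median of gene ratios over all genes was also the largest, at 1.0244. That factor was 0.9826 to 0.9953 in the other mutants and 0.9981 to 1.0173 in controls. Its values thus ran high beyond the kinesins, and the share of all genes highest in it was not computed.

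Kinesin genes changed about as much in the mutants as genes in general, with a median absolute log2 change of 0.094 against 0.11. Among the 41, the test called 5 higher and 3 lower and left 33 uncalled (limma on log2(TPM + 1), adjusted p under 0.05 over all 18635 genes tested), which is 19.5% of the family. Over all genes 20.3% passed, 8.38% upwards and 11.9% downwards, so the family's share lay near the background. The direction over all genes moved with the scaling, to 1812 higher and 1957 lower by the median of gene ratios and to 1845 higher and 1797 lower without mitochondrial and the 50 most abundant genes, against 1561 higher and 2217 lower as deposited. The genes that rose were kif1ab, 1 copy of KIF3C, KIF5A, KIF22 and kif15. Those that fell were KIF7, kif2c and KIF2A. The median log2 change was 0.052 over the kinesins and -0.013 over all genes, and ratios of mean TPM ran from 0.766 for kif1cb, which did not pass, to 1.63 for kif1ab. All 4 mutant libraries lay beyond all 4 controls for 11 kinesin genes, 8 above and 3 below. The same held for 24.5% of all genes, 10.7% above and 13.8% below. Leaving out mutant replicate 2 left 4 genes higher and 3 lower, with kif15 lost.

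**Figure D1:**
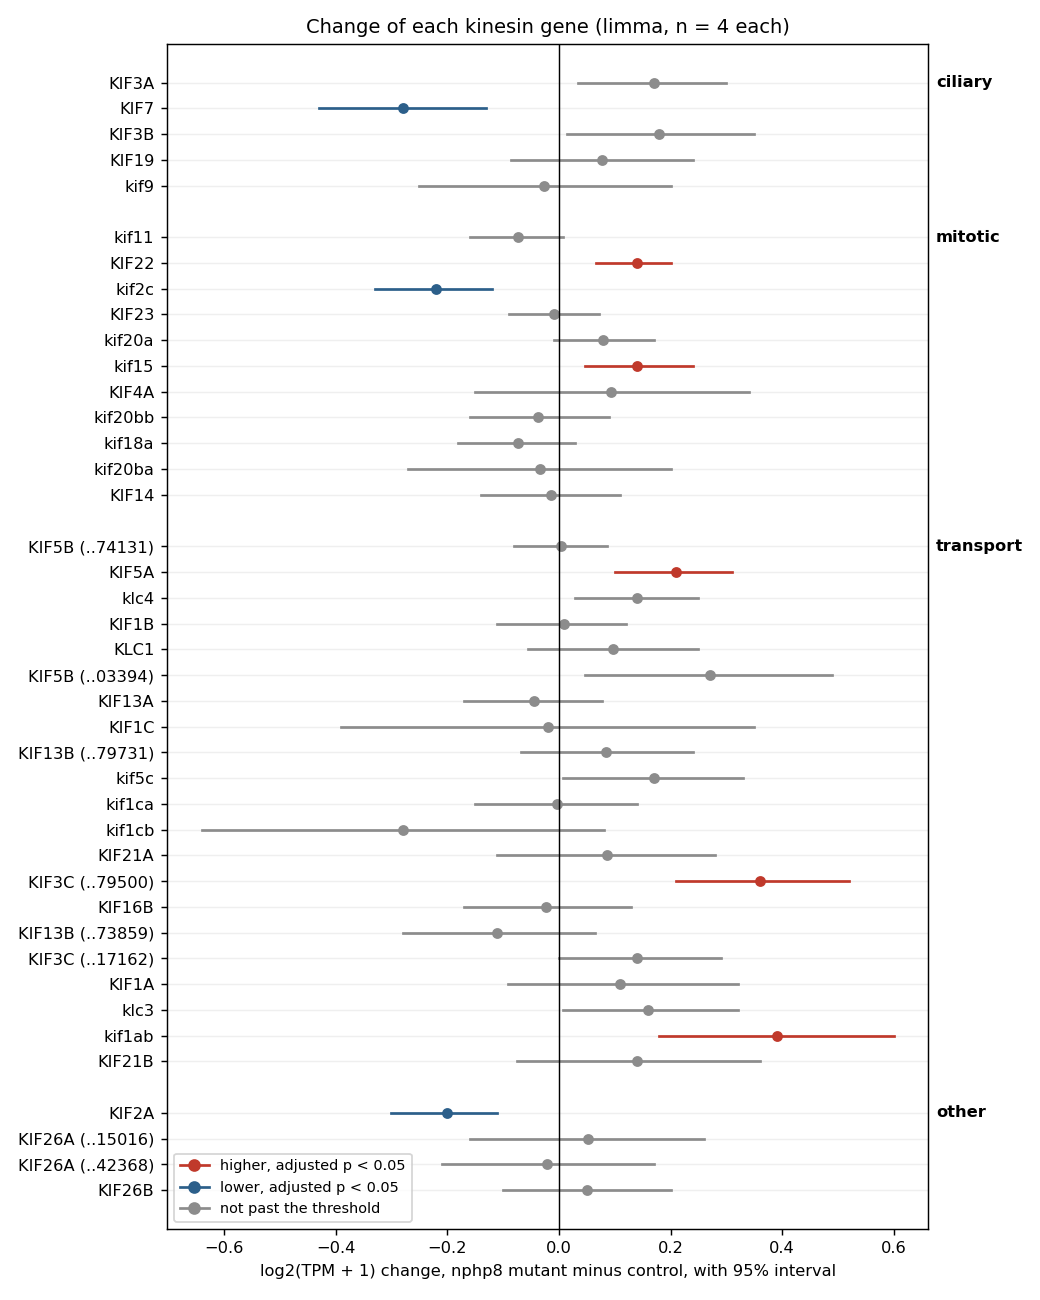
The horizontal axis gives the change in log2(TPM + 1), nphp8 mutant minus control, with the point at the estimate and the line its 95% interval from limma (n = 4 each). The vertical axis lists the 41 kinesin genes by role and mean level, with the last digits of the identifier where a symbol is shared. The 5 genes in red rose, the 3 in blue fell, and the grey ones did not pass.

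Spindle motors made up most of the kinesin transcripts. The 11 mitotic genes held 66.1% of the summed kinesin TPM, the 21 transport genes 22.5%, the 5 ciliary genes 5.65% and the 4 others 5.79%. Every mitotic gene averaged at least 10.3 TPM, whereas the median level was 2.77 TPM among transport genes and 3.46 TPM among ciliary genes. The highest was kif11, the bipolar motor that pushes spindle poles apart, at 81.2 ± 3.64 TPM in mutants and 85.5 ± 2.68 TPM in controls (SD, n = 4 each). It was followed in order of the mean over the 8 libraries by KIF22, KIF5B (ENSDARG00000074131), kif2c, KIF23, kif20a, KIF2A and kif15. The fold between the highest member and the lowest, kif9 at a mean of 0.541 TPM, was far wider than any difference between the groups. The nearest gene below the limit was KIF6, at a mean of 0.473 TPM.

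**Figure D2:**
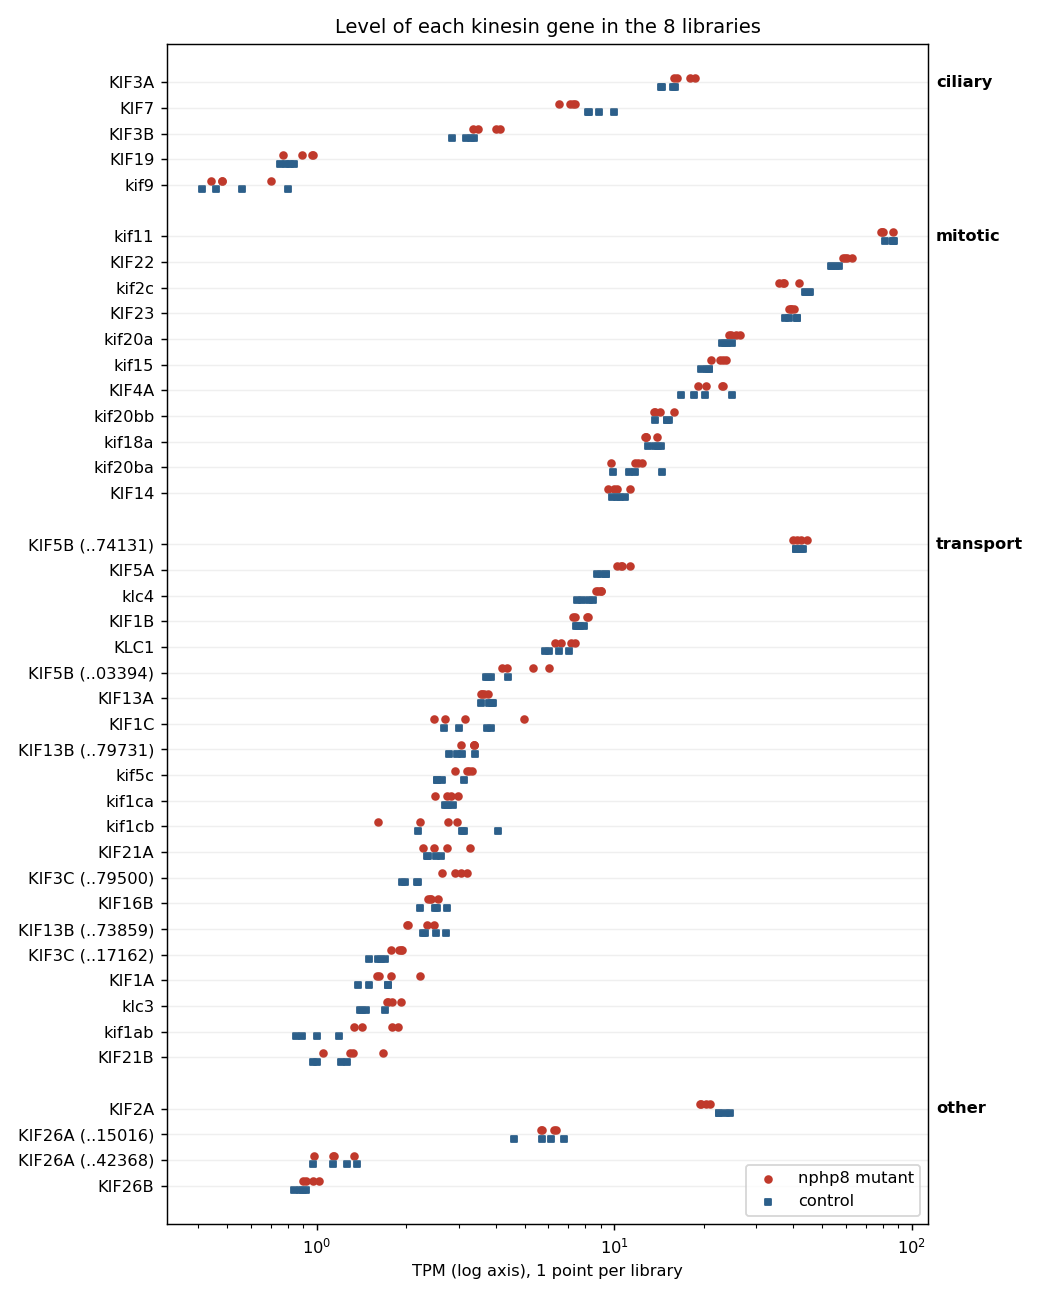
The horizontal axis is TPM on a log scale, with a point for each library (red circles, nphp8 mutant, drawn above blue squares, control), and the vertical axis lists the 41 genes by role. The 11 mitotic genes sit at 10.3 TPM or more on average, and the groups overlap for most genes.

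Among ciliary kinesins, KIF7 fell and the motors of intraflagellar transport did not pass. KIF7 (ENSDARG00000033099) encodes an immotile kinesin-4 that organises the tip of the cilium and regulates the Gli transcription factors of Hedgehog signalling. It stood at 7.1, 7.37, 6.54 and 7.29 TPM in mutant replicates 1 to 4 and at 9.97, 8.24, 8.14 and 8.92 TPM in control replicates 1 to 4. Every mutant library lay below every control. The means were 7.07 ± 0.374 TPM in mutants and 8.82 ± 0.843 TPM in controls, a ratio of 0.802, and the log2 change was -0.28 (SE 0.0675, limma adjusted p = 0.017). KIF7 was the only one of the 5 ciliary genes past the threshold, 20% against 20.3% of all genes.

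KIF3A and KIF3B form the heterodimer that carries intraflagellar transport trains outwards. KIF3A stood at 16.21, 18.01, 15.9 and 18.63 TPM in mutants and at 14.53, 16.06, 15.71 and 14.33 TPM in controls, and the groups overlapped. Its log2 change was 0.17 (95% interval 0.035 to 0.30, limma adjusted p = 0.0755), and it passed when libraries were rescaled by the median of their gene ratios (adjusted p = 0.0438). KIF3B stood at 3.49, 4.14, 3.35 and 4.01 TPM in mutants and at 2.85, 3.17, 3.37 and 3.3 TPM in controls, with 1 mutant library below the highest control. Its log2 change was 0.18 (95% interval 0.014 to 0.35, limma adjusted p = 0.12). In both groups KIF3A was the most abundant of the kinesin-2 motor genes.

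The other ciliary kinesins were scarce. KIF19, known in mice for trimming microtubules at the tips of motile cilia, ranged from 0.77 to 0.97 TPM in mutants and from 0.75 to 0.84 TPM in controls (log2 change 0.077, 95% interval -0.085 to 0.24). The axonemal kinesin kif9 ranged from 0.44 to 0.7 TPM in mutants and from 0.41 to 0.8 TPM in controls (log2 change -0.027, 95% interval -0.25 to 0.20). Below the limit and not tested, KIF6 ranged from 0.45 to 0.57 TPM in mutants and from 0.37 to 0.51 TPM in controls. KIF17, the homodimeric kinesin-2, ranged from 0.12 to 0.25 TPM in mutants and from 0.12 to 0.22 TPM in controls. All 4 of these genes overlapped between the groups, at low levels where reads may be few, though their number is not known. The other genes below the limit, kif26bb, kif28, kif5ab, KIF25 and the KIF16B copy ENSDARG00000080018, had values from 0.02 to 0.58 TPM. Of these, the KIF16B copy alone did not overlap, at 0.06 to 0.12 TPM in mutants and 0.13 to 0.3 TPM in controls, and it was not tested.

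The strongest kinesin-2 difference lay in KIF3C, which pairs with KIF3A in place of KIF3B and is known mainly from neurons. The copy ENSDARG00000079500 stood at 2.64, 3.06, 3.19 and 2.92 TPM in mutants and at 1.98, 2.18, 2.19 and 1.93 TPM in controls. It was higher in every mutant library than in any control, with means of 2.95 ± 0.236 TPM in mutants and 2.07 ± 0.134 TPM in controls, a ratio of 1.43 (log2 change 0.36, SE 0.0698, limma adjusted p = 0.00555). The other copy, ENSDARG00000017162, stood at 1.78, 1.94, 1.89 and 1.92 TPM in mutants and at 1.5, 1.65, 1.6 and 1.69 TPM in controls. Its groups did not overlap either, but it did not pass (ratio 1.17, log2 change 0.14, limma adjusted p = 0.147), although it passed in a fit without limma's mean-variance trend.

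The possible partners of KIF3A summed to more transcripts in the mutant libraries, and the sum of its adaptor copies was close in both groups. No test was made on these sums, and grouping by family was made after the values were seen. The partner sum leans on both KIF3C copies, each of which lay apart on its own, whereas KIF3B overlapped and did not pass. KIF3B and both KIF3C copies summed to 7.91, 9.14, 8.43 and 8.85 TPM in mutants and to 6.33, 7.0, 7.16 and 6.92 TPM in controls. KIFAP3, the adaptor that joins the heterodimer to its cargo, is duplicated and lies outside the symbol rule. Its copy ENSDARG00000006862 stood at 6.43 ± 0.247 TPM in mutants and 5.86 ± 0.362 TPM in controls, and its copy ENSDARG00000008639 at 8.71 ± 0.117 TPM in mutants and 9.34 ± 0.399 TPM in controls (SD, n = 4 each). Neither passed (limma adjusted p = 0.174 and 0.192), and their log2 changes were opposite in sign, at 0.12 and -0.089. The first copy overlapped between the groups. For the second all mutants, at 8.59 to 8.86 TPM, lay below all controls, at 9.02 to 9.9 TPM. The adaptor copies together summed to 14.98 to 15.32 TPM in mutants and 15.15 to 15.26 TPM in controls.

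**Figure D3:**
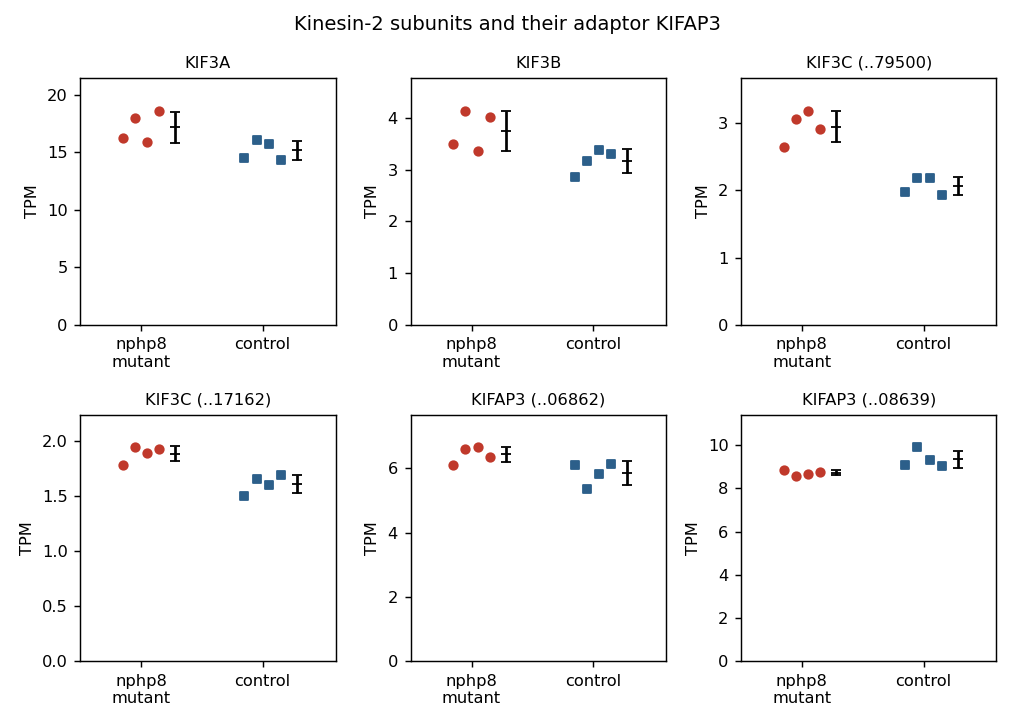
Each panel gives the TPM of a kinesin-2 subunit or adaptor gene on an axis from 0, with a point per library for nphp8 mutants (left) and controls (right) and a bar at the mean ± SD (n = 4 each). KIF3C ENSDARG00000079500 is the only gene of these 6 past the threshold, with mutants at 2.64 to 3.19 TPM and controls at 1.93 to 2.19 TPM.

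Few genes of the machinery that kinesin-2 carries passed. Of 27 genes for intraflagellar transport complexes A and B, dynein-2 and KIFAP3 that were tested, 1 rose and 0 fell (adjusted p under 0.05 by limma), 3.7% against 20.3% of all genes, with a median log2 change of 0.013 and, at an unadjusted p under 0.05, 2 higher and 1 lower. The gene that rose was IFT140, a core subunit of complex A, at 4.93 ± 0.125 TPM in mutants and 3.89 ± 0.24 TPM in controls (SD, n = 4 each; log2 change 0.28, limma adjusted p = 0.0071). Leaving out control replicate 4 brought 3 of the 27 past the threshold. Of 10 tested markers of motile ciliated cells 1 fell and 0 rose, against 20.3% of all genes in either direction. At an unadjusted p under 0.05 by limma 2 were lower and 0 higher. For neither list was a share of all genes computed at that level. The motile ciliated cell list summed to 28.77 to 32.15 TPM in mutants and 33.53 to 37.41 TPM in controls. Its defining transcription factor gene FOXJ1 stood at 3.23 TPM in mutants and 3.16 TPM in controls on average. The related gene foxj1b stood at 1.66 TPM in mutants and 1.81 TPM in controls, and neither passed. The marker that fell was CFAP298, a dynein arm assembly factor, at 11.1 ± 0.558 TPM in mutants and 14.4 ± 0.588 TPM in controls. CFAP298 was the most abundant gene of the list and the only one whose groups did not overlap. The sums therefore lean on CFAP298, and they were not computed without it. The part of ciliated cell number in the kinesin values was not tested. In whole larvae fewer cells of a type and less RNA per cell cannot be told apart.

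The mitotic kinesins that passed went in both directions, as did all genes (8.38% upwards and 11.9% downwards). KIF22 and kif15 rose, kif2c fell, and the other 8 of the 11 were not called, which is 27.3% against 20.3% of all genes, with a median log2 change of -0.014. KIF22, a chromokinesin that pushes chromosome arms towards the spindle equator, stood at 58.99, 62.83, 60.5 and 59.67 TPM in mutants and at 53.46, 54.06, 56.9 and 55.52 TPM in controls. Every mutant library lay above every control (ratio 1.1, log2 change 0.14, SE 0.0309, limma adjusted p = 0.0131).

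The other gene that rose, kif15, encodes a motor that can stand in for kif11 in keeping the spindle bipolar. It stood at 21.09, 23.84, 22.61 and 23.26 TPM in mutants and at 20.77, 19.54, 20.85 and 20.54 TPM in controls. The groups did not overlap, but the lowest mutant library, at 21.09 TPM, lay close to the highest control, at 20.85 TPM (log2 change 0.14, SE 0.0435, limma adjusted p = 0.0424). The call was lost when any single library other than mutant replicate 1 was left out (adjusted p up to 0.104). The motor it backs up, kif11, did not pass (log2 change -0.074, 95% interval -0.16 to 0.0079, limma adjusted p = 0.189).

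Both kinesin-13 genes fell. Kinesin-13 proteins do not walk but take tubulin off microtubule ends, and kif2c acts at kinetochores to undo wrong attachments. It stood at 35.93, 37.27, 37.06 and 41.94 TPM in mutants and at 43.99, 45.37, 43.85 and 45 TPM in controls, so that all mutants lay below all controls (ratio 0.854, log2 change -0.22, SE 0.0454, limma adjusted p = 0.00729). KIF2A, which trims microtubules in axons as well as at spindle poles and is counted here with the 4 others, stood at 19.64, 20.95, 19.47 and 20.33 TPM in mutants and at 23.82, 22.44, 22.57 and 24.45 TPM in controls. Its groups did not overlap either (ratio 0.862, log2 change -0.20, SE 0.0406, limma adjusted p = 0.0066). Together they summed to 58.1 ± 2.96 TPM in mutants and 67.9 ± 1.24 TPM in controls (SD, n = 4 each). This sum had to lie apart because each gene did, and no test was made on it. Grouping by family was made after the values were seen. Both calls held in all 16 alternative fits.

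The motors of the central spindle and of cytokinesis did not pass. KIF23, the motor subunit of centralspindlin, stood at 39.3 ± 0.642 TPM in mutants and 39.6 ± 1.78 TPM in controls (SD, n = 4 each; 95% interval of the log2 change -0.089 to 0.071). Its relative kif20a, which brings Aurora B to the midzone, stood at 25.3 ± 1.03 TPM in mutants and 23.9 ± 0.789 TPM in controls (log2 change 0.079, limma adjusted p = 0.191). The remaining mitotic genes, whatever their step in division, were KIF4A, kif20ba, kif20bb, kif18a and KIF14. Their log2 changes lay between -0.074 and 0.094, and none passed. KIF4A ranged from 19.07 to 23.19 TPM in mutants and from 16.74 to 24.92 TPM in controls.

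**Figure D4:**
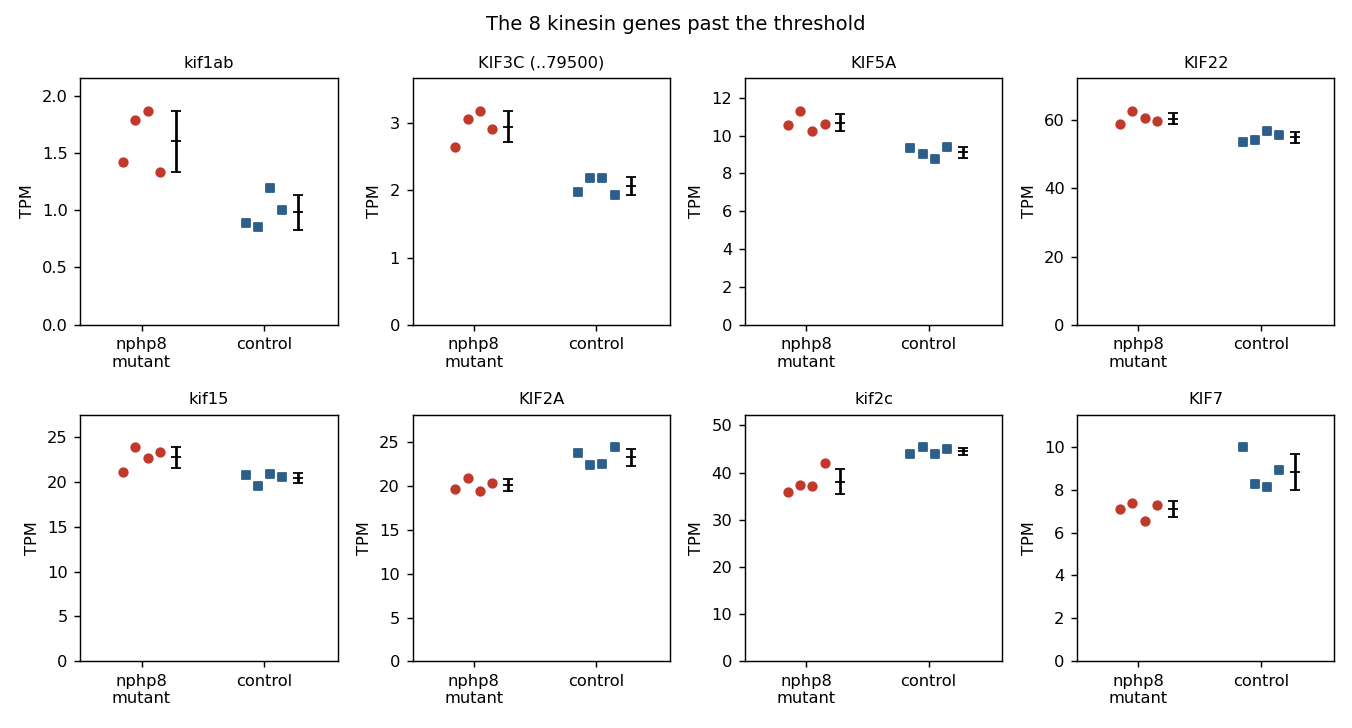
Each panel gives the TPM of a kinesin gene past the threshold on an axis from 0, with a point per library for nphp8 mutants (left) and controls (right) and a bar at the mean ± SD (n = 4 each). The groups do not overlap in any of the 8 panels, and the ratio of means is largest for kif1ab at 1.63.

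Other genes of mitosis passed at a share near that of all genes, in both directions. Of 46 genes of the spindle, the kinetochore and the chromosomal passenger complex that were tested, 7 fell and 3 rose, 21.7% against 20.3% of all genes, with a median log2 change of -0.004. The largest called changes were in bub1bb, a spindle checkpoint gene (log2 change -0.22), CDC20, an activator of the anaphase-promoting complex (-0.21), sgo1, a protector of centromeric cohesion (0.20), and PRC1 ENSDARG00000005993, a bundler of midzone microtubules (-0.17). The count fell to 5 without control replicate 1, control replicate 2, mutant replicate 1 or mutant replicate 4. It fell to 6 without control replicate 4 or mutant replicate 3, to 7 without mutant replicate 2 and to 8 without control replicate 3. Without control replicate 1, 3123 of 18632 genes passed over all, a larger share than 5 of 46. The nearness to the share of all genes therefore does not hold in every fit. The further motors cenpe and kifc1 in that list lie outside the symbol rule and were singled out after their values were seen, and neither passed. The kinetochore motor cenpe averaged at 43.7 ± 1.95 TPM in mutants and 45.3 ± 3.0 TPM in controls, and the minus-end motor kifc1 at 88.8 ± 5.22 TPM in mutants and 82.2 ± 4.37 TPM in controls (SD, n = 4 each). Of 12 markers of proliferating cells 3 rose (RRM1, MCM2 and MCM5) and 1 copy of RRM2 fell, 33.3% against 20.3% of all genes. That list summed to 6550 to 6684 TPM in mutants and 6571 to 6690 TPM in controls. The sum leans on HMGB2 and hmgb2b, at means of 2220 and 1870 TPM over the 8 libraries, and says little about the scarcer members.

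Transport kinesins included 3 genes that rose and 0 that fell by limma. At an unadjusted p under 0.05 by limma 8 were higher and 0 lower, but the share of all genes at that level was not computed. The 3 past the adjusted threshold were kif1ab, the KIF3C copy described above and KIF5A. They are 14.3% of 21 tested, against 20.3% of all genes in either direction and 8.38% upwards. Of the 21 genes 15 had a positive log2 change, with a median of 0.097 against -0.013 over all genes. The share of all genes with a positive change was not computed, so neither this count nor the unadjusted one shows a trend of these genes. The paralogue of KIF1A, kif1ab (ENSDARG00000062024), belongs to the kinesin-3 motors that carry synaptic vesicle precursors. It stood at 1.42, 1.79, 1.87 and 1.33 TPM in mutants and at 0.89, 0.85, 1.19 and 1 TPM in controls. Every mutant library lay above every control, at levels under 2 TPM (log2 change 0.39, SE 0.0957, limma adjusted p = 0.0182). KIF1A itself did not pass, at 1.8 ± 0.296 TPM in mutants and 1.58 ± 0.174 TPM in controls (limma adjusted p = 0.423).

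KIF5A is a kinesin-1 heavy chain of neurons. It stood at 10.54, 11.33, 10.25 and 10.62 TPM in mutants and at 9.35, 9.05, 8.75 and 9.38 TPM in controls. The groups did not overlap, and the means were 10.7 ± 0.458 TPM in mutants and 9.13 ± 0.295 TPM in controls (ratio 1.17, log2 change 0.21, SE 0.0458, limma adjusted p = 0.0118). The most abundant heavy chain, the widely expressed KIF5B copy ENSDARG00000074131, stood at 42.0 ± 1.92 TPM in mutants and 41.9 ± 1.1 TPM in controls (95% interval of the log2 change -0.081 to 0.087). The other KIF5B copy, ENSDARG00000103394, stood at 4.37, 6.03, 4.21 and 5.34 TPM in mutants and at 3.86, 3.71, 4.4 and 3.77 TPM in controls. It overlapped and did not pass (log2 change 0.27, limma adjusted p = 0.0864), and kif5c did not either (log2 change 0.17, limma adjusted p = 0.131).

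The light chains, which link kinesin-1 heavy chains to cargo, did not pass singly. The nearest was klc4, at 8.68, 8.83, 9.05 and 9 TPM in mutants and at 7.77, 8.24, 8.48 and 7.51 TPM in controls. All mutants lay above all controls (log2 change 0.14, 95% interval 0.029 to 0.25, limma adjusted p = 0.0752), and it passed after either rescaling of the libraries (adjusted p = 0.0494 by the median of gene ratios and 0.047 without mitochondrial and the 50 most abundant genes). The log2 change of klc3 was 0.16 (limma adjusted p = 0.13) and that of KLC1 0.097 (limma adjusted p = 0.355). Summed light chains stood at 17.2, 17.98, 17.11 and 17.88 TPM in mutants and at 15.28, 15.76, 16.9 and 15.46 TPM in controls. Summed KIF5 heavy chains stood at 58.17, 64.99, 58.54 and 61.67 TPM in mutants and at 57.33, 57.65, 58.9 and 56.76 TPM in controls, and these overlapped. No test was made on either sum, and within the light chain sum klc3 and klc4 each lay apart on their own.

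The remaining kinesin-3 and kinesin-4 transport genes did not pass. KIF1B, a carrier of mitochondria and vesicles, stood at 7.71 ± 0.466 TPM in mutants and 7.65 ± 0.192 TPM in controls (SD, n = 4 each). KIF1C and kif1cb had the largest SEs of the 41 members (0.166 and 0.161 on the log2 scale). KIF1C ranged from 2.48 to 4.99 TPM in mutants and from 2.68 to 3.84 TPM in controls, and kif1cb from 1.6 to 2.95 TPM in mutants and from 2.19 to 4.08 TPM in controls. The 95% interval of kif1cb, -0.64 to 0.08 on the log2 scale, reached farthest from 0 of all 33 members that did not pass. The third gene of that name, kif1ca, had a log2 change of -0.0033. The KIF13B copies ENSDARG00000079731 and ENSDARG00000073859 had log2 changes of 0.084 and -0.11. The endosomal motors KIF13A and KIF16B (ENSDARG00000100225) and the microtubule growth inhibitors KIF21A and KIF21B had log2 changes of -0.044, -0.023, 0.087 and 0.14. The KIF26 genes, counted with the 4 others, encode atypical kinesin-11 proteins, and the log2 changes of the 3 tested lay between -0.022 and 0.052.

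Duplicated copies were also compared within each library, as the log2 ratio of TPM + 1 of the higher copy to TPM + 1 of the lower. The added 1 draws such ratios of scarce copies towards 0. Of 9 pairs, 2 reached the lowest p-value an exact permutation test can give here (two-sided, p = 0.0286). Neither passed after Benjamini-Hochberg adjustment over the 9 pairs (adjusted p = 0.129). With only 2 pairs at the lowest possible p-value, neither could have passed that adjustment, so its outcome says nothing about these pairs. This log2 ratio for KIF3C ENSDARG00000079500 over ENSDARG00000017162 was 0.45 ± 0.0631 in mutants and 0.23 ± 0.0757 in controls (SD, n = 4 each), higher in 4 of 4 mutant libraries than in any control. For KIF5B ENSDARG00000074131 over ENSDARG00000103394 it was 2.85 ± 0.147 in mutants and 3.12 ± 0.0699 in controls, lower in 4 of 4. Reads that fit both copies of a gene are divided by estimate, so that values of near-identical copies are less certain than these SDs show.

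Genes that work beside the transport kinesins passed at a share near that of all genes, in both directions. Of 54 tested genes of dynein-1, dynactin and cargo adaptors, 8 rose and 4 fell, 22.2% against 20.3% of all genes, with a median log2 change of 0.048. The dynein light chain gene dynll1 fell most, to 579 ± 24.2 TPM in mutants against 778 ± 17.8 TPM in controls (SD, n = 4 each; log2 change -0.43, limma adjusted p = 1.34e-05). The next were HOOK1, a dynein adaptor (log2 change -0.39), KIDINS220 ENSDARG00000017338, a scaffold of neurons carried by kinesin-1 (0.37), and DYNLL2 ENSDARG00000005172, another light chain (-0.36).

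Among neuronal markers 10 of 21 tested rose and 0 fell by limma, 47.6% against 20.3% of all genes in either direction and 8.38% upwards. The number that passed was 7 to 11 with a library left out and 7 to 12 in the other alternative fits. The median log2 change of the neuronal markers was 0.16. At an unadjusted p under 0.05 by limma 15 were higher and 0 lower, with no share of all genes computed at that level. The list summed to 510 to 538.9 TPM in mutants and 456.5 to 479 TPM in controls, with no member at 0 in all libraries. The neurofilament genes NEFL and nefma led it, at 5.38 ± 0.195 TPM and 7.77 ± 0.394 TPM in mutants and 2.98 ± 0.0903 TPM and 5.49 ± 0.4 TPM in controls (log2 changes 0.68 and 0.43), followed by the synaptic vesicle gene sypa (0.29). The other neurofilament genes of the list, nefmb, nefla and both INA copies, did not pass. The more abundant NEFM copy, nefmb, stood at 15.2 ± 0.821 TPM in mutants and 15.5 ± 0.257 TPM in controls (log2 change -0.028). All 11 tested markers of skeletal muscle rose too, against 8.38% of all genes upwards. The muscle list summed to 27960 to 28680 TPM in mutants and 23170 to 23900 TPM in controls. The part of neuron or muscle content in the transport kinesin values was not tested.

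**Figure D5:**
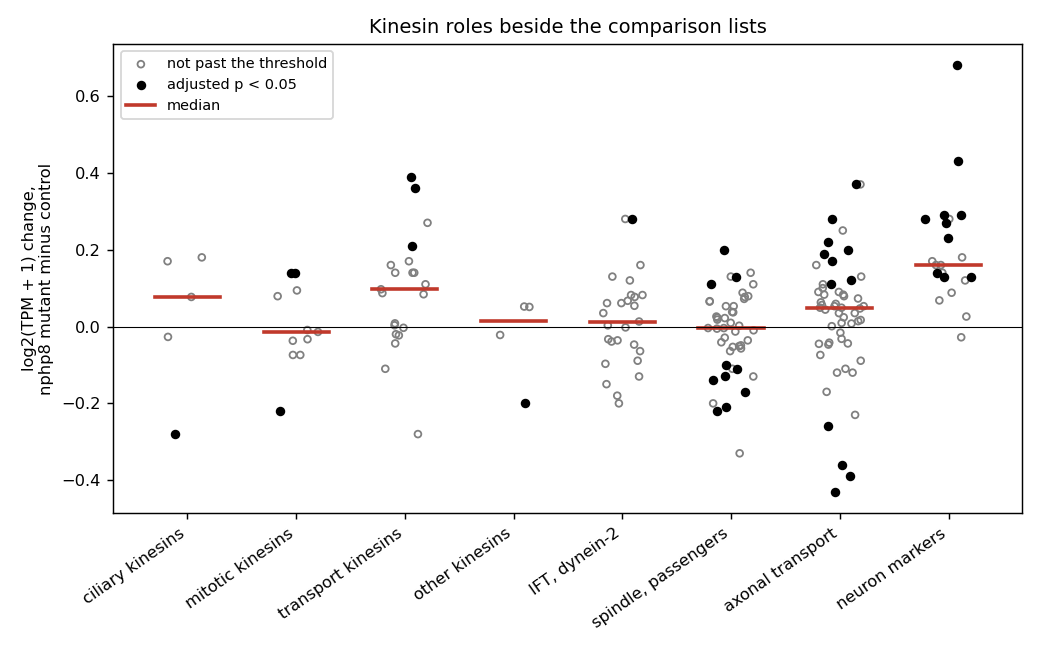
The vertical axis gives the change in log2(TPM + 1), nphp8 mutant minus control, of each tested gene, by kinesin role and for the comparison lists. Filled points passed the threshold, open ones did not, and red lines are medians, which lie between -0.014 and 0.097 for the kinesin roles and at 0.16 for neuronal markers.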

How the data were processed

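RNA from whole larvae was sequenced in 8 libraries. STAR 2.7.3a, RSEM 1.3.1 and the GRCz11 build are named in the submitters' processing notes. The authors deposited TPM per Ensembl gene and library, scaled to the same sum in each, so depth is unknown and no interval for counting error can be given. Library preparation was a provider's own protocol, per the labels' protocols, and whether it kept the strand is not given there.

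Symbols came from a table that names 29201 of 32520 identifiers (89.8%). All genes averaging 0.5 TPM or more were fitted with limma 3.58.1 in R 4.3.3 (mean-variance trend, two-sided, no covariate) on log2(TPM + 1), a scale that understates changes of low genes. P-values were adjusted by Benjamini-Hochberg over all 18635 genes. No share of all genes was computed at an unadjusted p under 0.05, so counts at that level have no background beside them. Every adjusted p is from this fit unless another is named. Log2 changes are mutant minus control, and ratios are of mean TPM. The scripts were tested on simulated data. Python 3.11.15, pandas 2.3.3 and matplotlib 3.10.9 were used.

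A rule set genes to be named: every changed or ciliary kinesin, the 8 most abundant, the 3 nearest the threshold, and up to 4 changed genes of each list. Many other kinesins, and list genes such as nefmb, foxj1b, cenpe and kifc1, were also given values, outside this rule. Members, roles and lists were chosen with earlier results of these data known. Alternatives were pseudocounts of 0.1 and 0.5, a mean of at least 1 TPM or no filter, 2 rescalings, no trend, a replicate block, and leaving out each library. No sequence was used here.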

Additional observations from a re-analysis of the deposited data

Results flagged for a closer look

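In 7 of 82 sets of 4 libraries (41 genes, 2 groups) a library lay far from the other 3, where chance flags about 1 in 20. Mutant libraries were flagged for kif11 (replicate 1 at 86.61 TPM, the others 78.85 to 80.07 TPM), kif9 (replicate 2 at 0.7 TPM, the others 0.44 to 0.48 TPM), kif18a (replicate 2 at 13.88 TPM, the others 12.68 to 12.81 TPM) and KIF13B ENSDARG00000079731 (replicate 1 at 3.05 TPM, the others 3.37 to 3.39 TPM). Control libraries were flagged for kif11 (replicate 3 at 81.48 TPM, the others 86.59 to 87.1 TPM), kif20bb (replicate 1 at 13.72 TPM, the others 15.06 to 15.25 TPM) and kif5c (replicate 1 at 3.13 TPM, the others 2.54 to 2.64 TPM). None of these 6 genes passed the threshold between the groups.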

How the results depend on the processing

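Of the 8 kinesin calls, 7 held in all 16 alternative fits. The call of kif15 was lost without a filter, without the trend, with the replicate block and without any 1 library except mutant replicate 1. Changed kinesins numbered 7 to 10 (7 to 8 with a library left out), and changed genes of all kinds 2865 to 3782 (2935 to 3231 with a library left out). Median-of-ratios rescaling added KIF3A and klc4, which gave 2 changed ciliary genes, and the fit without the trend added KIF3C ENSDARG00000017162. The spindle list had 6 changed genes without the trend and 5 with the replicate block, and 5 to 8 with a library left out. The intraflagellar transport list had 1 to 3 with a library left out. Signs turned for genes that passed nowhere: KIF23 to 0.0054 and 0.014 under the 2 rescalings and between -0.033 and 0.0095 with a library left out, KIF5B ENSDARG00000074131 between -0.023 and 0.027, and kif9 between -0.08 and 0.045.

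Same-numbered libraries did not deviate together (correlations -0.016 to -0.096), so the replicate numbers are not taken as pairs; with the replicate block 7 kinesins and 2865 genes changed.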

Other observations

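Kinesins can also be sorted by family number, a grouping made after the values were seen and therefore given with no test. All 7 kinesin-1 genes (KIF5A, both KIF5B copies, kif5c, KLC1, klc3 and klc4) had a positive log2 change in the mutants, with a median of 0.16, but KIF5A alone passed the threshold, and the sign of KIF5B ENSDARG00000074131 (0.0033) turned when single libraries were left out. All 4 kinesin-2 genes (KIF3A, KIF3B and both KIF3C copies) had a positive log2 change as well, with a median of 0.18, and 1 passed. Those shares, 14.3% and 25.0%, stand against 20.3% of all genes, 8.38% upwards. Of the 33 kinesins that did not pass, 7 had an unadjusted 95% interval wholly above 0 and 0 had one wholly below it. Those 7 all belong to kinesin-1 or kinesin-2. The share of all genes with such an interval was not computed, so this count has no background to be set against. The 11 kinesin-3 genes had a median of -0.014 with 1 gene past the threshold, kif1ab, and the 4 kinesin-6 genes of cytokinesis a median of -0.021 with 0 past it (0 of 4 also at an unadjusted p under 0.05). Neuronal markers were higher in the same libraries (510 to 538.9 TPM in mutants, 456.5 to 479 TPM in controls), and their part in these values was not tested.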
